A study of Mus musculus with 9 samples.

Results

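The 10 genes described here mark the unfolded protein response and the ATF4 response in Caki, an established line from a human clear cell carcinoma of the kidney. They were taken by name from a count table of 58735 genes: HSPA5, XBP1, HERPUD1, DNAJB9, ATF4, DDIT3, TRIB3, CHAC1, SESN2 and ASNS. RNA was sequenced from cells carrying constitutively active YAP1 with serine 127 replaced by alanine (YAP1-S127A), from cells carrying wild-type YAP1 (YAP1), and from cells carrying the empty retroviral vector (MX), with 3 libraries per group and 9 in all. Cells of all 3 groups were selected with G418 and grown in serum, and no stress agent was applied per the labels. The labels do not say whether a group is a pool or a clone, nor whether replicates are separate cultures. Each p-value given below therefore speaks of library-to-library spread alone, which may be technical. Mouse is the organism on the labels, whereas the table lists human Ensembl genes and is read here as human. The series title also names HPV oncogenes, and samples with those were not analysed here.

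Unfolded protein in the endoplasmic reticulum activates the sensors PERK, IRE1 and ATF6. IRE1 splices XBP1 mRNA and ATF6 is cut to a transcription factor, and both then raise chaperones and degradation factors. PERK, and other kinases that sense amino acid shortage or double-stranded RNA, phosphorylate eIF2alpha, which lowers translation in general and raises that of ATF4. ATF4 in turn drives genes of amino acid supply, DDIT3 and TRIB3. The secreted matrix and transport proteins of kidney tubule cells pass through this folding machinery. Counts per gene show neither the splicing of XBP1 nor the translation of ATF4.

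Libraries held 15789722 to 24811150 counts. YAP1 mRNA, introduced and endogenous together, was at 687 ± 55.0 CPM (counts per 1000000, scaled by TMM) with YAP1-S127A and 1219 ± 267 CPM with YAP1, against 99.8 ± 8.61 CPM in MX (SD, n = 3 each). Mitochondrial transcripts took 7.40 to 29.6% of counts with YAP1-S127A, 3.497 to 11.4% with YAP1 and 1.896 to 6.60% in MX, and the highest shares were those of YAP1-S127A replicates 1 and 3, at 29.6% and 21.2%. MX replicate 1 stood apart in genes detected, 25491 against 21568 to 23156 in the other libraries. Of the 12 kidney and clear cell markers, PAX8 was at 261 ± 37.3 CPM with YAP1-S127A, 296 ± 18.4 CPM with YAP1 and 285 ± 5.40 CPM in MX, while PAX2 and CA9, the carbonic anhydrase typical of clear cell carcinoma, averaged at most 0.489 CPM in any group. Summed leukocyte markers stayed at or under 3.73 CPM in every library and summed endothelial markers at or under 1.99 CPM. The 9 fibroblast markers, mostly COL1A1, summed to 2145 to 3955 CPM with YAP1-S127A, 1336 to 1688 CPM with YAP1 and 773 to 1307 CPM in MX, while PDGFRA and THY1 were near 0. Of the 6 fibroblast markers tested, 5 rose in YAP1-S127A versus MX, 1 in YAP1 versus MX and 4 in YAP1-S127A versus YAP1, with median log2 fold changes of 1.86, 0.81 and 1.08. Among them COL1A2 was at 80.4 ± 50.3 CPM with YAP1-S127A, 7.49 ± 2.80 CPM with YAP1 and 0.740 ± 0.314 CPM in MX, and LUM at 9.52 ± 2.86 CPM with YAP1-S127A, 2.53 ± 0.364 CPM with YAP1 and 0.870 ± 0.403 CPM in MX (SD, n = 3 each). The part of these markers and of the mitochondrial share in the results that follow was not tested, beyond the values given with that share as a covariate. In edgeR's quasi-likelihood test on all 15492 genes kept by the filter on low counts, 1476 genes were higher and 1369 lower in YAP1-S127A versus MX, and 611 and 3836 when libraries were scaled to total counts. The same counts were 500 and 555 (311 and 679 scaled to total counts) in YAP1 versus MX and 175 and 130 (113 and 503) in YAP1-S127A versus YAP1.

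All 10 genes passed the filter on low counts, and their levels were spread widely. Per kilobase of the deposited gene length, HSPA5, the lumenal chaperone BiP, was highest at 262 ± 20.4 CPM per kilobase over the 9 libraries (SD), above 99.2% of tested genes. ATF4 followed at 84.2 ± 9.29, XBP1 at 37.6 ± 2.04 and HERPUD1 at 31.5 ± 3.20 CPM per kilobase. DDIT3 at 21.4 ± 2.94, DNAJB9 at 18.8 ± 3.73, SESN2 at 17.7 ± 3.02 and TRIB3 at 16.1 ± 1.53 CPM per kilobase lay close together, and the ranges of their 9 libraries overlapped, as did those of XBP1 and HERPUD1. CHAC1 was at 3.09 ± 0.916 and ASNS at 0.210 ± 0.0451 CPM per kilobase, above 6.38% of tested genes. Every other step in this order was larger than the spread over libraries.

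**Figure D1:**
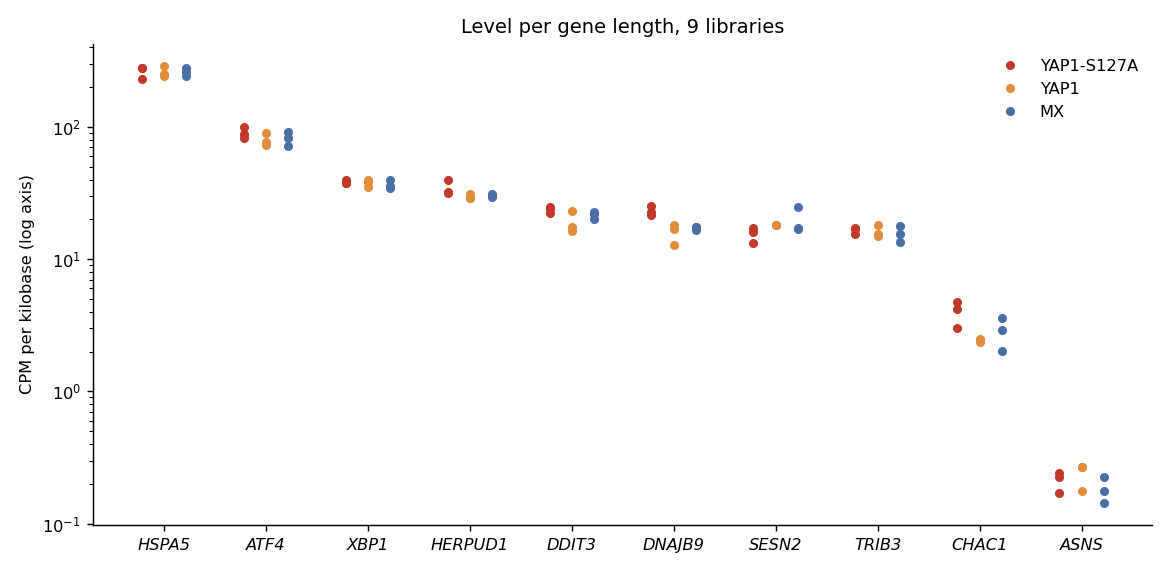
Level per kilobase of deposited gene length on a log axis, with 1 point per library and the 10 genes in order of their mean over 9 libraries. The groups of each gene sit close together beside the steps between genes, and ASNS, at 0.143 to 0.269 CPM per kilobase, lies far under the rest.

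Setting YAP1-S127A beside MX asks whether these stress genes differ when active YAP1 is present. DNAJB9, an endoplasmic reticulum J protein that works with BiP and is induced through XBP1, was the 1 gene of the 10 that passed the test, and it was higher by 34.3% with YAP1-S127A (95% interval of the log2 fold change 0.16 to 0.69, n = 3 libraries per group). The other 9 did not pass. Of all tested genes 18.4% were called, 9.53% higher and 8.84% lower, so that 1 of 10 is no more than the background. The libraries of YAP1-S127A and MX did not overlap for HERPUD1 and DNAJB9, both higher, which is 2 of 10 beside 32.7% of all tested genes (16.7% higher and 16% lower). At an unadjusted edgeR p under 0.05 there were 3, DNAJB9, CHAC1 and SESN2. Among the 15492 tested genes a p of 0.0493 ranked 4828 in this comparison, so 3 of 10 is near the background. The median log2 fold change of the 10 was 0.14, against -0.0045 over all tested genes, and 9 of 10 values were above 0. Scaled to total counts, which moves the median of all genes to -0.28, DNAJB9 and CHAC1 alone stayed above 0.

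In YAP1 versus MX, 0 of the 10 passed edgeR's test, and DESeq2 and limma-voom called 0 as well. Of all tested genes edgeR called 6.81%, 3.23% higher and 3.58% lower. At an unadjusted edgeR p under 0.05 there were 0 of the 10, while a p of 0.0515 ranked 3103 among the 15492 tested genes. The libraries of these groups overlapped in all 10, while the groups stood apart for 24.1% of all tested genes (12.1% higher and 12% lower). The 10 had a median log2 fold change of -0.03, with 6 values under 0 and 4 above. In YAP1-S127A versus YAP1, DNAJB9 passed again and the other 9 did not, where 1.97% of all tested genes were called, 1.13% higher and 0.839% lower. A count of 1 in 10 genes is too small to be read against that share. At an unadjusted edgeR p under 0.05 there were again 3, DNAJB9, CHAC1 and DDIT3. Here a p of 0.0529 ranked 1968 among the 15492 tested genes. Libraries did not overlap for 4 of the 10, HERPUD1, CHAC1 and DNAJB9 on the higher side and SESN2 on the lower, beside 19.6% of all tested genes (10.3% higher and 9.34% lower). The median of the 10 was 0.11, against 0.0056 over all tested genes. The 2 comparisons with MX share the MX libraries, and both that involve YAP1-S127A share its libraries, so their values are not independent of each other. In bulk RNA a change within each cell and a change in the mix of cells cannot be told apart.

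**Figure D2:**
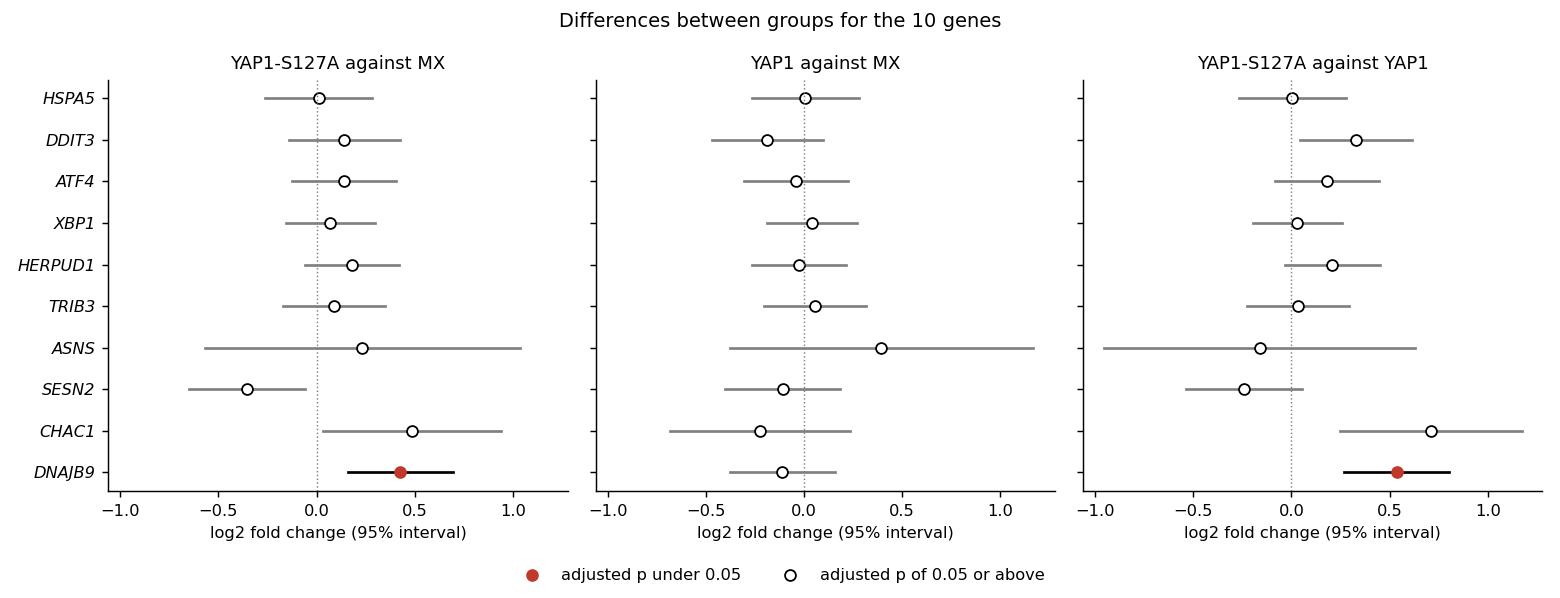
Log2 fold change with its 95% interval for each of the 10 genes in the 3 comparisons, filled where the adjusted p was under 0.05. DNAJB9 is filled in both comparisons of YAP1-S127A, at 0.43 against MX and 0.54 against YAP1, and no gene is filled in YAP1 versus MX.

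Among genes of protein folding, HSPA5 is the standard readout of the unfolded protein response. HSPA5 had 905, 1091 and 1085 CPM with YAP1-S127A, 954, 1131 and 988 CPM with YAP1, and 950, 1096 and 1013 CPM in MX (replicates 1, 2 and 3 here and in what follows). The 3 groups covered the same range. The log2 fold change was 0.01 (SE 0.13, 95% interval -0.26 to 0.28, edgeR adjusted p = 0.968) for YAP1-S127A versus MX. It was 0.0066 (interval -0.27 to 0.28) for YAP1 versus MX and 0.0038 (interval -0.27 to 0.28) for YAP1-S127A versus YAP1.

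DNAJB9 (ENSG00000128590) is placed by the table on the plus strand of chromosome 7, from 108569568 to 108574850; which human build these positions refer to is not stated in the material used here. It had 64.4, 60.9 and 71.7 CPM with YAP1-S127A, 36.4, 51.7 and 47.9 CPM with YAP1, and 49.9, 49.4 and 47.4 CPM in MX. The YAP1-S127A libraries lay above every library of the other groups, while YAP1 and MX overlapped. The log2 fold change was 0.43 (SE 0.13, edgeR adjusted p = 0.0248) for YAP1-S127A versus MX and 0.54 (SE 0.13, adjusted p = 0.0342) for YAP1-S127A versus YAP1. For YAP1 versus MX it was -0.11 (interval -0.38 to 0.16, adjusted p = 0.709).

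The call of DNAJB9 against MX was lost without MX replicate 3 (adjusted p = 0.0908) and without YAP1-S127A replicate 1 (0.0532) or 3 (0.120), and scaled to total counts its log2 fold change was 0.15 (adjusted p = 0.504). Against YAP1 the call ended with the loss of any YAP1-S127A library (adjusted p = 0.0711, 0.0576 and 0.223 without replicates 1, 2 and 3), of YAP1 replicate 1 (0.200), of YAP1 replicate 3 (0.0950) or of MX replicate 3 (0.0536), and when scaled to total counts (0.34, adjusted p = 0.220). DNAJB9 was highest in YAP1-S127A replicate 3, with 21.2% mitochondrial counts, and lowest in YAP1 replicate 1, with 3.497%. The largest share, 29.6% in YAP1-S127A replicate 1, went with 64.4 CPM, and the smallest, 1.896% in MX replicate 3, with 47.4 CPM. Log2 CPM of DNAJB9 had a Pearson correlation with the share of 0.74 over 9 libraries and 0.46 within groups. With the mitochondrial share as a covariate the log2 fold change of DNAJB9 was 0.27 (adjusted p = 0.442) against MX and 0.41 (adjusted p = 0.314) against YAP1. With YAP1-S127A reduced to replicate 2, whose mitochondrial share of 7.40% is near those of the other groups, it was 0.31 (adjusted p = 0.388) and 0.41 (adjusted p = 0.508). The genes PNPLA8 and THAP5 overlap DNAJB9 on the other strand, and since the strand setting of the counting is not given, their reads cannot be told apart with certainty. They had log2 fold changes of 0.18 and 0.18 against MX and 0.11 and 0.23 against YAP1, with no call.

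XBP1, the transcription factor made active by IRE1 splicing, and HERPUD1, a membrane protein of endoplasmic reticulum associated degradation, complete this branch. XBP1 ranged from 114 to 121 CPM with YAP1-S127A, 107 to 120 CPM with YAP1 and 104 to 120 CPM in MX, and the groups overlapped. Its log2 fold change was 0.07 (interval -0.16 to 0.30) for YAP1-S127A versus MX, 0.04 for YAP1 versus MX and 0.03 for YAP1-S127A versus YAP1. HERPUD1 had 163, 203 and 165 CPM with YAP1-S127A, 149, 161 and 150 CPM with YAP1, and 151, 159 and 160 CPM in MX. Its YAP1-S127A libraries were all above the others, with replicate 2 far above the rest. The log2 fold change of HERPUD1 was 0.18 (SE 0.11, adjusted p = 0.306) against MX and 0.21 (SE 0.11, adjusted p = 0.495) against YAP1, and without YAP1-S127A replicate 2 it was 0.07 and 0.10.

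**Figure D3:**
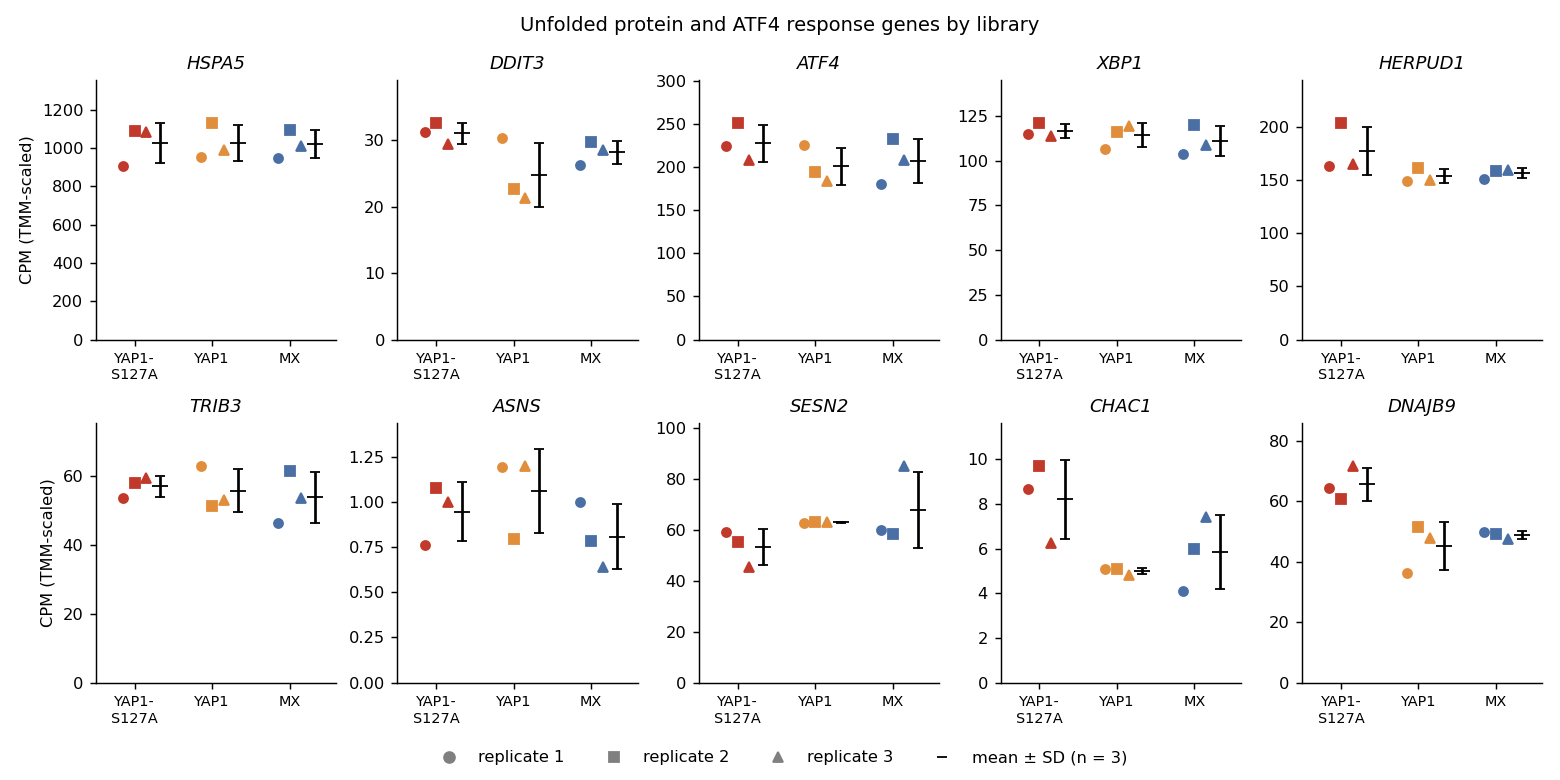
CPM of each of the 10 genes in every library, with the mean and SD of 3 libraries beside each group and every axis starting at 0. HSPA5, XBP1 and TRIB3 cover the same range in the 3 groups, DNAJB9 is highest in the 3 YAP1-S127A libraries, and ASNS stays at or under 1.196 CPM throughout.

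ATF4 is the transcription factor at the centre of the integrated stress response. ATF4 had 224, 251 and 208 CPM with YAP1-S127A, 225, 195 and 183 CPM with YAP1, and 180, 232 and 208 CPM in MX. The groups overlapped in every pairing. Its log2 fold change was 0.14 (interval -0.13 to 0.40) for YAP1-S127A versus MX, -0.04 (interval -0.30 to 0.22) for YAP1 versus MX and 0.18 (interval -0.08 to 0.44) for YAP1-S127A versus YAP1.

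DDIT3, also called CHOP, is a transcription factor tied to cell death under lasting stress. DDIT3 had 31.2, 32.6 and 29.4 CPM with YAP1-S127A, 30.3, 22.7 and 21.2 CPM with YAP1, and 26.3, 29.6 and 28.6 CPM in MX. Replicates 2 and 3 of YAP1 were the lowest of the 9 libraries, and replicate 1 of YAP1 reached into the range of YAP1-S127A. In DDIT3 the log2 fold change was 0.14 (SE 0.14, adjusted p = 0.521) for YAP1-S127A versus MX, -0.19 (SE 0.14, adjusted p = 0.500) for YAP1 versus MX and 0.33 (SE 0.14, unadjusted p = 0.0265, edgeR adjusted p = 0.320) for YAP1-S127A versus YAP1. DDIT3 overlaps MARS and MBD6 on the other strand, and MBD6 fell by 0.52 on the log2 scale (adjusted p = 0.00629) with YAP1-S127A versus MX. Chromosome 12, where DDIT3 lies, had a median log2 fold change of -0.14 over 848 tested genes in YAP1 versus MX. That median was -0.06 in YAP1-S127A versus MX and 0.08 in YAP1-S127A versus YAP1. For chromosome 9, where HSPA5 lies, it was 0.08 in YAP1 versus MX and 0.12 in YAP1-S127A versus MX. The part of such shifts in the values of single genes was not tested.

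TRIB3, a pseudokinase induced by ATF4 and CHOP that dampens AKT signalling, ranged from 53.6 to 59.4 CPM with YAP1-S127A, 51.3 to 62.7 CPM with YAP1 and 46.4 to 61.2 CPM in MX. The groups overlapped, and its log2 fold changes of 0.09, 0.05 and 0.03 in YAP1-S127A versus MX, YAP1 versus MX and YAP1-S127A versus YAP1 had intervals within -0.23 to 0.35. CHAC1, an enzyme that degrades glutathione, had 8.68, 9.69 and 6.24 CPM with YAP1-S127A, 5.07, 5.09 and 4.83 CPM with YAP1, and 4.13, 5.98 and 7.43 CPM in MX, from 90 to 198 counts. The YAP1-S127A libraries lay above the YAP1 libraries, while both overlapped MX. The log2 fold change of CHAC1 was 0.49 (SE 0.22, unadjusted p = 0.0369, edgeR adjusted p = 0.130) for YAP1-S127A versus MX and 0.71 (SE 0.22, adjusted p = 0.123) for YAP1-S127A versus YAP1, the largest of the 10 genes in size in both. Against YAP1 it was called without MX replicate 1 (adjusted p = 0.0442), with no filter on low counts (0.0480) and in a fit of the 2 groups alone (0.0448). For YAP1 versus MX it was -0.22 (SE 0.22, adjusted p = 0.649).

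SESN2, which senses leucine and restrains mTORC1, was the 1 gene of the 10 with a negative log2 fold change in YAP1-S127A versus MX. SESN2 had 59.0, 55.2 and 45.4 CPM with YAP1-S127A, 62.7, 62.9 and 63.0 CPM with YAP1, and 59.9, 58.5 and 84.9 CPM in MX. Every YAP1-S127A library was under every YAP1 library, and MX replicate 3 stood far above the other MX libraries. SESN2 had a log2 fold change of -0.35 (SE 0.14, edgeR adjusted p = 0.0910) for YAP1-S127A versus MX and -0.24 (SE 0.14, adjusted p = 0.521) for YAP1-S127A versus YAP1. Against MX it was called without MX replicate 1 (adjusted p = 0.0265) or 2 (0.0412) and scaled to total counts (-0.63, adjusted p = 0.00181), and it was -0.16 without MX replicate 3. For YAP1 versus MX the log2 fold change was -0.11 (adjusted p = 0.736).

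ASNS, asparagine synthetase, is among the most widely used targets of ATF4. The gene (ENSG00000070669) is on the minus strand of chromosome 7, from 97852118 to 97872542. It had 10, 17 and 19 counts with YAP1-S127A, 23, 14 and 27 counts with YAP1, and 28, 13 and 17 counts in MX. These were 0.762, 1.08 and 0.997 CPM with YAP1-S127A, 1.190, 0.792 and 1.196 CPM with YAP1, and 0.997, 0.785 and 0.638 CPM in MX. The transcript was therefore near the lower edge of what was tested in all 9 libraries, where 3 counts stand for 0.121 to 0.190 CPM. The 4 ASNS pseudogenes in the table had at most 1 count in a library. The log2 fold change of ASNS was 0.23 (interval -0.57 to 1.03) for YAP1-S127A versus MX, 0.39 (interval -0.38 to 1.17) for YAP1 versus MX and -0.16 (interval -0.95 to 0.63) for YAP1-S127A versus YAP1, so a change was not detectable at this depth.

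The 10 genes did not move as a block from library to library. Of their 45 pairs, 27 had a positive Pearson correlation of log2 CPM over the 9 libraries, with a median of 0.20. The highest was that of DDIT3 with ATF4 at 0.83, which was also 0.83 once the mean of each group was taken away, and the lowest that of SESN2 with DNAJB9 at -0.60, which was -0.28 once those means were taken away. The pair of DDIT3 with DNAJB9 had 0.24 over the 9 libraries and -0.89, the lowest of all pairs, within groups. These correlations are descriptions over 9 points that share depth and library quality within a library. Among 9816 other genes of a mean log2 CPM of at least 3, the closest profile to ATF4 was that of VAMP8 (r = 0.98), to HERPUD1 that of EXOSC7 (0.97), to SESN2 that of NCOA5 (0.97), to CHAC1 that of SLC25A20 (0.95), to DDIT3 that of RNF114 (0.95), to HSPA5 that of TXNDC11 (0.95), to DNAJB9 that of TMEM19 (0.94), to TRIB3 that of DUSP14 (0.93) and to ASNS that of JRK (0.87). XBP1 was closest to ENSG00000099785 (0.96), whose name the table gives as a date. Each of these values is the largest of 9816 over 9 libraries, a choice that favours high values, and none was tested. The second gene was close behind, at 0.951 after 0.953 for HSPA5 and 0.941 after 0.943 for DNAJB9.

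Around the 10 genes, 155 others of the same pathways, of cytosolic heat shock and of p53 signalling were followed in 10 lists, of which 152 were tested. In YAP1-S127A versus MX 14 of the 152 rose and 8 fell, 14.5% in all against 18.4% of all tested genes. In YAP1 versus MX 3 rose and 3 fell (3.95% against 6.81%), and in YAP1-S127A versus YAP1 3 rose and 0 fell (1.97% against 1.97%). Pooled over the lists, these shares were at or under that of all tested genes in each comparison, while single lists stood on either side of it. At an unadjusted edgeR p under 0.05 there were 43 of the 152 in YAP1-S127A versus MX, 26 in YAP1 versus MX and 16 in YAP1-S127A versus YAP1. Among all 15492 tested genes a p of 0.0493, 0.0515 and 0.0529 ranked 4828, 3103 and 1968 in those comparisons.

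**Figure D4:**
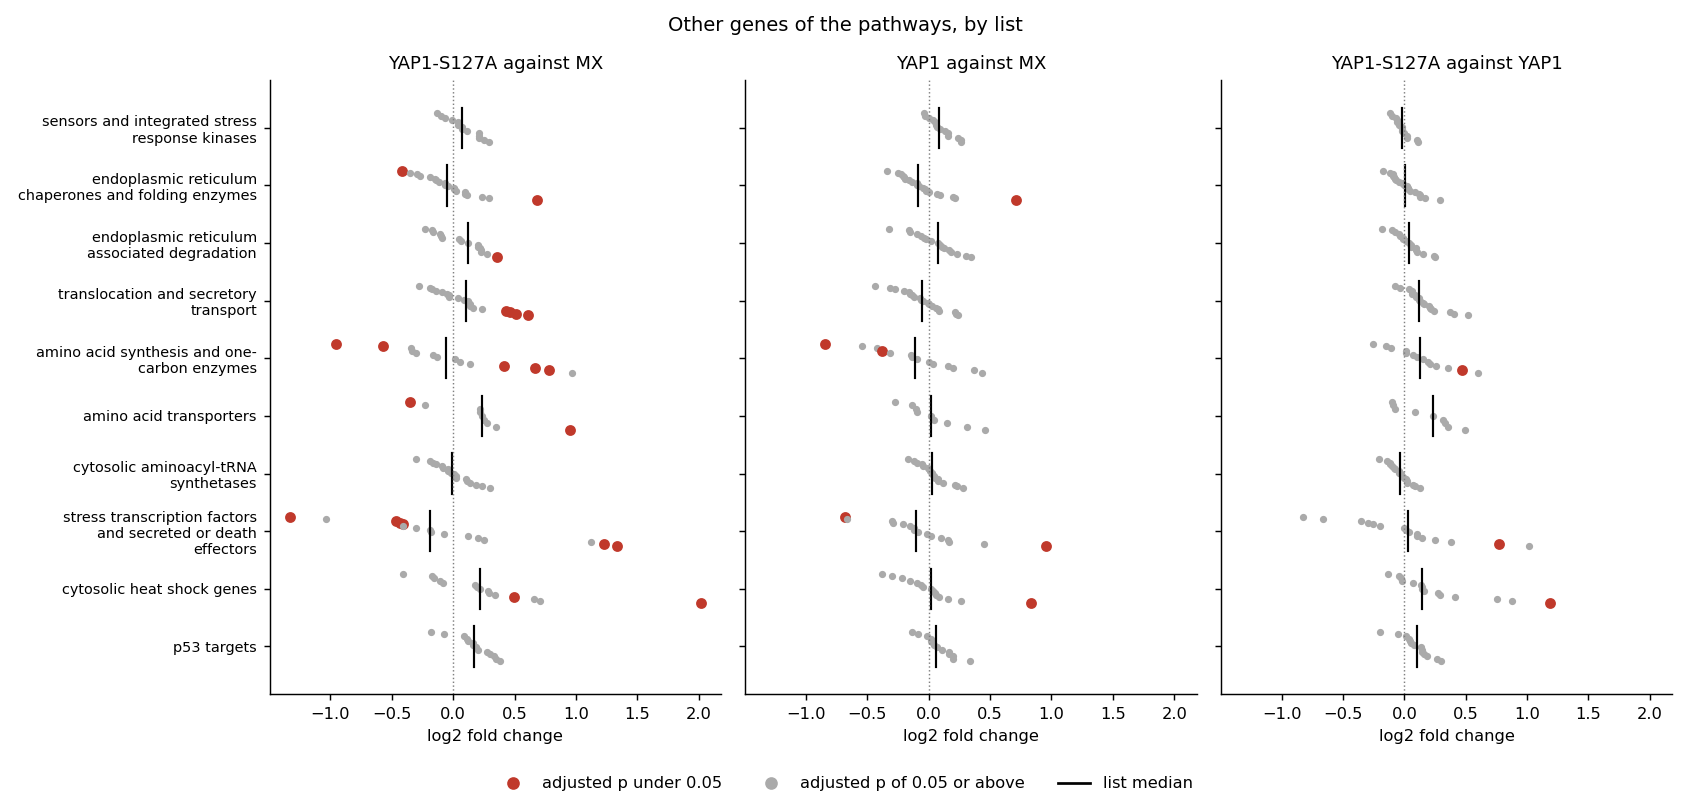
Log2 fold change of each tested gene in the 10 pathway lists for the 3 comparisons, with called genes in red and a bar at the median of each list. The called genes number at most 6 in a list and comparison, on either side of 0 in some lists and on a single side in others. In YAP1-S127A versus MX translocation and secretory transport has 4 higher and 0 lower of 20. Of all tested genes 18.4% were called there, 9.53% higher. In YAP1-S127A versus YAP1 all lists together have 3 higher and 0 lower of 152, which is 1.97% beside 1.97% of all tested genes.

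The 14 stress sensors and kinases, among them ERN1 (IRE1), EIF2AK3 (PERK) and ATF6, gave 0 calls by edgeR, DESeq2 and limma-voom in all 3 comparisons. By edgeR, 18.4% of all tested genes were called in YAP1-S127A versus MX, 6.81% in YAP1 versus MX and 1.97% in YAP1-S127A versus YAP1. An unadjusted p under 0.05 was reached by 1 of the 14 in YAP1-S127A versus MX, 2 in YAP1 versus MX and 0 in YAP1-S127A versus YAP1. In the same order, an unadjusted p of 0.0493, 0.0515 and 0.0529 ranked 4828, 3103 and 1968 among the 15492 tested genes. In YAP1-S127A versus MX the log2 fold change was 0.21 for EIF2AK3 (adjusted p = 0.278) and -0.13 for ERN1 (adjusted p = 0.522). Of 20 other chaperones and folding enzymes of the endoplasmic reticulum, 1 rose and 1 fell in YAP1-S127A versus MX, 2 of 20 beside 18.4% of all tested genes, and the list median was -0.05. TXNDC5, a disulfide isomerase, was at 19.3 ± 0.773 CPM with YAP1-S127A and 19.5 ± 4.62 CPM with YAP1, against 11.9 ± 2.85 CPM in MX (SD, n = 3 each), and rose by 0.69 with YAP1-S127A (adjusted p = 0.0116) and by 0.71 with YAP1 (adjusted p = 0.0200). The call in YAP1 was lost when MX replicate 1 (0.0568), MX replicate 2 (0.0684), YAP1 replicate 2 (0.0845) or YAP1 replicate 3 (0.153) was left out. PDIA3, an isomerase that folds glycoproteins, fell by 0.41 with YAP1-S127A versus MX (adjusted p = 0.0366), a call lost without MX replicate 2 (0.141) or YAP1-S127A replicate 1 (0.154) or 3 (0.0981). Its pseudogene PDIA3P1 held 195 to 502 counts, so that its reads may be split.

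Of 17 tested genes of endoplasmic reticulum associated degradation, 1 rose in YAP1-S127A versus MX, the ubiquitin-conjugating enzyme UBE2J1 at 0.36 (adjusted p = 0.0318). That is 1 of 17 beside 18.4% of all tested genes called, 9.53% higher. In the other comparisons edgeR, DESeq2 and limma-voom called 0 of the 17. By edgeR, 6.81% of all tested genes were called in YAP1 versus MX and 1.97% in YAP1-S127A versus YAP1. Unadjusted, 3 of the 17 had a p under 0.05 in YAP1 versus MX and 0 in YAP1-S127A versus YAP1. An unadjusted p of 0.0515 and 0.0529 ranked 3103 and 1968 among the 15492 tested genes in these comparisons. UBE2J1 lost its call when MX replicate 2, MX replicate 3, YAP1 replicate 2, YAP1-S127A replicate 1 or YAP1-S127A replicate 2 was left out (adjusted p = 0.0510 to 0.153). Of 20 genes of translocation and secretory transport, 4 rose in YAP1-S127A versus MX, SSR3, SRPRB, SEC61A1 and KDELR2, and 0 fell. Of all tested genes 18.4% were called there, 9.53% higher. SEC61A1 rose by 0.43 (adjusted p = 0.0432) and KDELR2 by 0.46 (adjusted p = 0.0271). The libraries of KDELR2 overlapped, and neither of these calls was checked without single libraries. SSR3, a subunit of the translocon-associated TRAP complex, had 486, 504 and 542 CPM with YAP1-S127A, 367, 431 and 385 CPM with YAP1, and 333, 353 and 316 CPM in MX. The 3 groups did not overlap, and SSR3 rose by 0.61 (SE 0.12, adjusted p = 0.000850) against MX, a call kept without each library in turn but not scaled to total counts (0.34, adjusted p = 0.107). SRPRB, of the signal recognition particle receptor, rose by 0.52 (adjusted p = 0.0143), which was lost without MX replicate 3 (0.0638) or YAP1-S127A replicate 2 (0.0642) or 3 (0.0798). The transport list gave 0 calls in YAP1 versus MX by the 3 tools, beside 6.81% of all tested genes by edgeR, and 3 of its genes had an unadjusted p under 0.05. In YAP1-S127A versus YAP1 edgeR and limma-voom called 0 of the list and DESeq2 called 2, beside 1.97% of all tested genes by edgeR. Again 3 of the list had an unadjusted p under 0.05. Both counts of 3 stand beside the ranks of 3103 and 1968 given above for all tested genes.

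The amino acid genes that ATF4 is known to drive went in both directions. Of 14 genes of amino acid synthesis and one-carbon metabolism, 3 rose and 2 fell in YAP1-S127A versus MX, which is 5 of 14 beside 18.4% of all tested genes. In YAP1 versus MX 0 rose and 2 fell, 2 of 14 beside 6.81%, and in YAP1-S127A versus YAP1 1 rose, beside 1.97%. PSAT1, the aminotransferase of serine synthesis, had 66.6, 65.3 and 67.3 CPM with YAP1-S127A, 65.1, 74.5 and 75.4 CPM with YAP1, and 127, 119 and 140 CPM in MX. Every MX library was far above the other 6. PSAT1 fell by 0.95 (SE 0.11, adjusted p = 4.95e-06) with YAP1-S127A and by 0.84 (SE 0.11, adjusted p = 5.82e-05) with YAP1, and both calls were kept without each library in turn. PHGDH, the enzyme before it in serine synthesis, was at 40.2 ± 8.51 CPM with YAP1-S127A against 59.8 ± 6.67 CPM in MX (SD, n = 3 each) and fell by 0.57 (adjusted p = 0.0161), a call lost without MX replicate 2 (0.0547) or YAP1-S127A replicate 1 (0.0674) or 3 (0.0991). With the mitochondrial share as a covariate PHGDH had -0.19 (adjusted p = 0.637). GOT1, the cytosolic aspartate aminotransferase, fell by 0.38 with YAP1 (adjusted p = 0.0477), a call that other scalings, limma-voom and the loss of any library except MX replicate 1 ended (adjusted p = 0.0512 to 0.180).

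PYCR1, which makes proline, had 212, 246 and 227 CPM with YAP1-S127A, 155, 191 and 191 CPM with YAP1, and 106, 140 and 153 CPM in MX. The 3 groups did not overlap, and PYCR1 rose by 0.78 (SE 0.14, adjusted p = 0.000419) with YAP1-S127A versus MX. BCAT1, the cytosolic branched-chain aminotransferase, rose by 0.66 (SE 0.12, adjusted p = 0.000590) against MX, not called scaled to total counts (0.38, adjusted p = 0.0644). Against YAP1 it rose by 0.47 (adjusted p = 0.0495), a call lost by RLE scaling (0.0503), by limma-voom (0.0626) and without MX replicate 3 or any YAP1 or YAP1-S127A library (0.0700 to 0.208). Among 9 tested amino acid transporters, 1 rose and 1 fell in YAP1-S127A versus MX, beside 18.4% of all tested genes. At an unadjusted p under 0.05 there were 4 of the 9, where a p of 0.0493 ranked 4828 among the 15492 tested genes. SLC7A5, the leucine carrier LAT1, had 333, 500 and 419 CPM with YAP1-S127A, 341, 301 and 245 CPM with YAP1, and 189, 265 and 191 CPM in MX. It rose by 0.96 (SE 0.17, adjusted p = 0.000425) with YAP1-S127A versus MX, and YAP1-S127A replicate 1 lay within the range of YAP1. SLC38A1, a glutamine carrier, fell by 0.35 (adjusted p = 0.0486), a call lost by RLE scaling (0.0508), by limma-voom (0.0540) and when MX replicate 1, YAP1 replicate 2, YAP1 replicate 3 or a library of YAP1-S127A was left out (0.0680 to 0.136). For transporters edgeR and limma-voom called 0 in YAP1 versus MX and DESeq2 called 1. In YAP1-S127A versus YAP1 the 3 tools called 0. By adjusted p, edgeR called 6.81% and 1.97% of all tested genes in these comparisons. At an unadjusted p under 0.05 there were 3 and 2 transporters. An unadjusted p of 0.0515 and 0.0529 ranked 3103 and 1968 among the 15492 tested genes there. The 18 cytosolic aminoacyl-tRNA synthetases, many of them known ATF4 targets, gave 0 calls by the 3 tools throughout. By edgeR, 18.4% of all tested genes were called in YAP1-S127A versus MX, 6.81% in YAP1 versus MX and 1.97% in YAP1-S127A versus YAP1. Unadjusted, 2 of the 18 synthetases had a p under 0.05 in YAP1-S127A versus MX and 0 in the other comparisons. An unadjusted p of 0.0493 ranked 4828 among the 15492 tested genes in YAP1-S127A versus MX. The median of the 18 synthetases in that comparison was -0.0082.

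**Figure D5:**
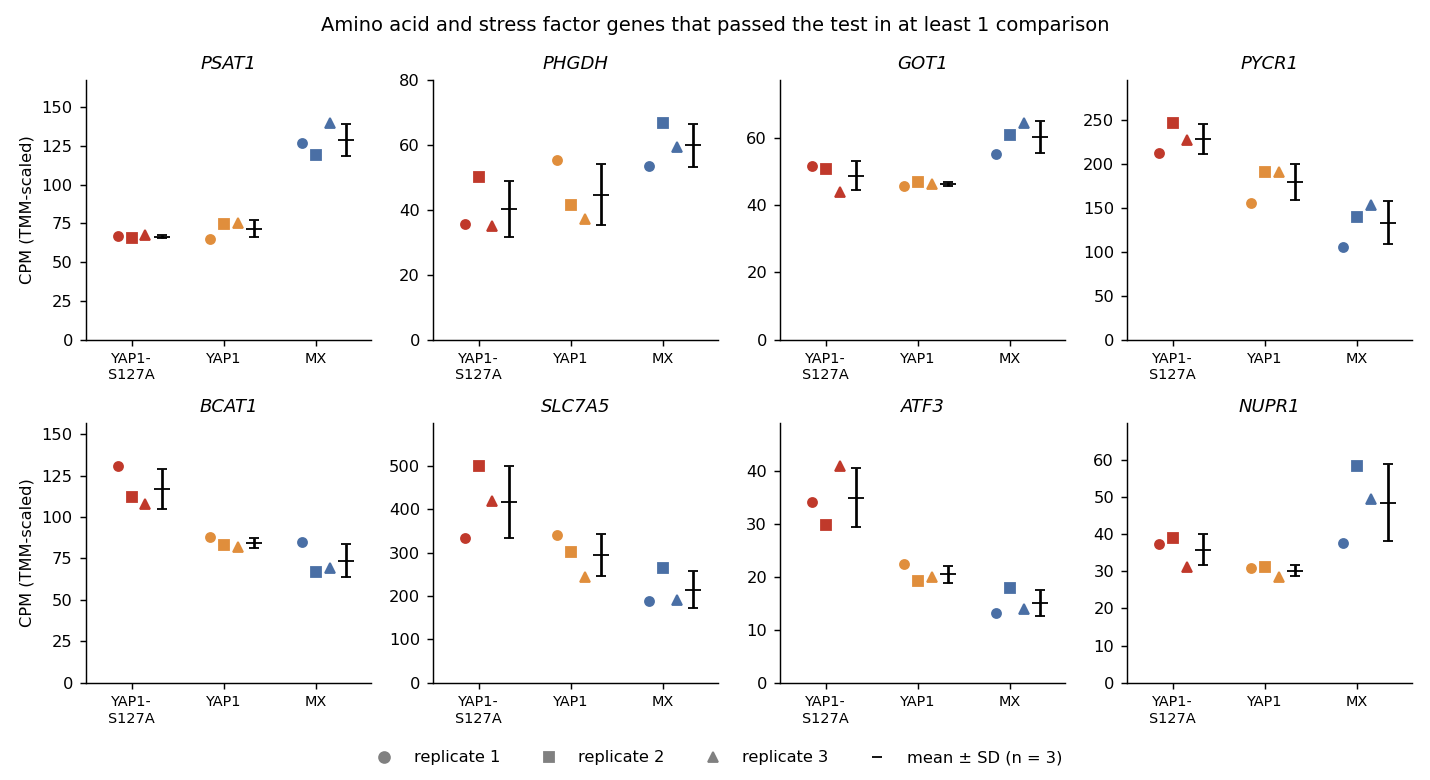
CPM in every library of amino acid and stress factor genes that passed the test in at least 1 comparison, with the mean and SD of 3 libraries and every axis starting at 0. PSAT1 is lower in all 6 libraries with YAP1-S127A or YAP1, from 65.1 to 75.4 CPM against 119 to 140 CPM in MX, while PYCR1, SLC7A5 and ATF3 average highest with YAP1-S127A.

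Among 16 tested stress transcription factors and secreted or death effectors, 2 rose and 4 fell in YAP1-S127A versus MX, which is 6 of 16 beside 18.4% of all tested genes. In YAP1 versus MX 1 rose and 1 fell, beside 6.81%, and in YAP1-S127A versus YAP1 1 rose, beside 1.97%. ATF3, a transcription factor induced by ATF4 and by many other signals, had 34.2, 29.9 and 40.9 CPM with YAP1-S127A, 22.4, 19.2 and 20.0 CPM with YAP1, and 13.3, 17.9 and 14.0 CPM in MX. The 3 groups did not overlap. ATF3 rose by 1.23 (SE 0.15, adjusted p = 7.47e-06) against MX and by 0.77 (SE 0.15, adjusted p = 0.00595) against YAP1, and the second call was lost without YAP1 replicate 2 (0.0524) or YAP1-S127A replicate 3 (0.0792), with the mitochondrial share as a covariate (0.0954) and with YAP1-S127A reduced to replicate 2 (0.360). JDP2, a related repressor, was at 15.9 ± 5.26 CPM with YAP1-S127A and 12.2 ± 1.21 CPM with YAP1, against 6.36 ± 1.70 CPM in MX (SD, n = 3 each), and rose by 1.33 with YAP1-S127A (adjusted p = 0.000298) and by 0.95 with YAP1 (adjusted p = 0.0118). The call in YAP1 was lost without YAP1 replicate 1 (0.0557).

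NUPR1, a small stress-induced chromatin protein, had 37.4, 38.9 and 31.1 CPM with YAP1-S127A, 30.9, 31.1 and 28.4 CPM with YAP1, and 37.6, 58.2 and 49.3 CPM in MX. It fell by 0.68 (SE 0.14, adjusted p = 0.00541) with YAP1, where the groups did not overlap. SESN3, a sestrin related to SESN2 and known as a FOXO target, was at 5.55 ± 1.96 CPM with YAP1-S127A and 8.66 ± 0.518 CPM with YAP1, against 13.6 ± 3.38 CPM in MX (SD, n = 3 each), and fell by 1.33 (adjusted p = 0.000446) with YAP1-S127A versus MX. VEGFA, the angiogenic growth factor, fell by 0.47 (adjusted p = 0.0296), a call lost by limma-voom (0.0515) and without MX replicate 1 (0.0621) or 2 (0.124) or YAP1-S127A replicate 2 (0.0789) or 3 (0.135). ATF5, another factor translated under stress, fell by 0.41 (adjusted p = 0.0297) in YAP1-S127A versus MX, and NUPR1 by 0.43 (adjusted p = 0.0416). The libraries of these groups overlapped for NUPR1 and not for ATF5. Neither of these calls was checked without single libraries.

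With the mitochondrial share as a covariate, TXNDC5, PDIA3, UBE2J1, SRPRB, PHGDH, SLC38A1 and VEGFA were no longer called in YAP1-S127A versus MX (adjusted p = 0.0578 to 0.637). Nor was BCAT1 in YAP1-S127A versus YAP1 (0.348). Log2 fold changes moved from 0.69 to 0.68 for TXNDC5, 0.52 to 0.63 for SRPRB, -0.35 to -0.38 for SLC38A1 and -0.47 to -0.54 for VEGFA. The others became smaller in size, PDIA3 from -0.41 to -0.26, UBE2J1 from 0.36 to 0.24, PHGDH from -0.57 to -0.19 and BCAT1 from 0.47 to 0.39. PSAT1, PYCR1, SLC7A5, SSR3, JDP2, SESN3 and, against MX, ATF3 and BCAT1 were still called. Scaled to total counts, TXNDC5 (0.0767), UBE2J1 (0.754) and SRPRB (0.227) lost their calls against MX, besides SSR3 and BCAT1 above.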

How the data were processed

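Per the labels, stranded libraries of messenger RNA were prepared from total RNA of 9 samples. The deposited values are raw counts per gene, 1 column per library, with no normalization visible, and a gene length in bases. The submitters' processing notes list HISAT2, Cufflinks, Salmon 1.9.0 and the mouse build GRCm39 without saying which step each served. The table's human build, annotation and strand setting: not given in the sources used here. No human sequence was used here.

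Genes were kept by filterByExpr (15492 of 58735), scaled by TMM and fitted over 9 libraries with edgeR 4.0.16 (R 4.3.3), using robust quasi-likelihood dispersions and no term but group. Two-sided p-values were adjusted by Benjamini-Hochberg across the whole set of tested genes, with a threshold of 0.05. Standard errors are absolute log2 fold changes over root F. CPM is scaled by TMM. Correlations used log2 CPM with a prior count of 2. Floors of 3 counts cover counting error only. Steps were tested on simulated counts.

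The 10 members and the lists were chosen with earlier results of these data known, and the lists carry no test. Named list genes were the 2 called genes of smallest p per list, direction and comparison, and SEC61A1, KDELR2, ATF5, EIF2AK3, ERN1, ATF6, NUPR1 in YAP1-S127A versus MX, COL1A2, LUM, PNPLA8, THAP5, MARS and MBD6 were named outside that rule, after their values were seen. Of the listed names, 19 were matched by another symbol. Alternatives were DESeq2 1.42.0, limma-voom (limma 3.58.1), RLE and total-count scaling, other filters, glmTreat against a fold of 1.2, fits of the groups compared alone, a replicate block, each library left out, and removal of or adjustment for mitochondrial counts. Their use on list genes was added after seeing the data.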

Additional observations from a re-analysis of the deposited data

How the results depend on the processing

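The count of the 10 genes called in YAP1 versus MX was 0 under every alternative run. In YAP1-S127A versus MX it was 1, and 0 with the mitochondrial share as a covariate, with glmTreat against a fold of 1.2 and with YAP1-S127A reduced to replicate 2. Scaled to total counts it was also 1, but the gene was SESN2, lower, in place of DNAJB9. In YAP1-S127A versus YAP1 it was 1, 0 under those 3 alternatives and scaled to total counts, and 2 (DNAJB9 and CHAC1) with no filter and with the 2 groups alone. Without single libraries it was 0 to 0, 0 to 2 and 0 to 2 for YAP1 versus MX, YAP1-S127A versus MX and YAP1-S127A versus YAP1.

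Of all tested genes, 1055, 2845 and 305 were called in those comparisons. Without single libraries the counts were 601 to 1423, 1847 to 3079 and 126 to 465, and with glmTreat 540, 1631 and 134. Scaled to total counts 4447 and 616 were called in the comparisons of YAP1-S127A with MX and YAP1. With the mitochondrial share as a covariate 1405 were called in YAP1-S127A versus MX, and with YAP1-S127A reduced to replicate 2 the counts were 1278 and 151 against MX and YAP1. In YAP1-S127A versus YAP1 no filter gave 520, DESeq2 475 and the 2 groups alone 478. The replicate number as a block gave 472 there and changed no call of the 10 genes. Correlations of same-numbered libraries after removal of group means were -0.18 to 0.20, so the numbers were not taken to pair the samples.

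Some log2 fold changes of genes without a call changed sign, the largest among them ASNS at 0.23 and HERPUD1 at 0.18 in YAP1-S127A versus MX. Scaled to total counts, in YAP1 versus MX HSPA5 was -0.062, XBP1 -0.029 and TRIB3 -0.0056. In YAP1-S127A versus MX HSPA5 was -0.25, DDIT3 -0.13, ATF4 -0.12, XBP1 -0.20, HERPUD1 -0.080, TRIB3 -0.18 and ASNS -0.040. In YAP1-S127A versus YAP1 HSPA5 was -0.19, ATF4 -0.022, XBP1 -0.17 and TRIB3 -0.17. HSPA5 was also -0.011 there with no filter, -0.0025 without mitochondrial genes and -0.00099 with the 2 groups alone, ASNS was 0.0037 with YAP1-S127A reduced to replicate 2, and HERPUD1 was 0.013 in YAP1 versus MX with the mitochondrial covariate. Without single libraries, in YAP1 versus MX HSPA5 ranged from -0.068 to 0.063, XBP1 from -0.0087 to 0.10, TRIB3 from -0.044 to 0.16, ATF4 from -0.13 to 0.051, SESN2 from -0.20 to 0.085 and DNAJB9 from -0.21 to 0.026. In YAP1-S127A versus MX HSPA5 ranged from -0.047 to 0.091 and TRIB3 from -0.016 to 0.19, and in YAP1-S127A versus YAP1 HSPA5 from -0.050 to 0.080, XBP1 from -0.022 to 0.063 and TRIB3 from -0.029 to 0.12. The cause of these changes was not tested. Depth limits ASNS and CHAC1 most, with 10 to 28 and 90 to 198 counts per library.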

Other observations

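Cytosolic heat shock genes were followed beside those of the endoplasmic reticulum. Of 15 tested, 2 rose in YAP1-S127A versus MX and 0 fell, and 1 rose in each of the other comparisons, where 18.4% of all tested genes were called in YAP1-S127A versus MX, 6.81% in YAP1 versus MX and 1.97% in YAP1-S127A versus YAP1. CRYAB, the small heat shock protein alpha-B-crystallin, had 142, 193 and 149 CPM with YAP1-S127A, 82.0, 69.5 and 60.8 CPM with YAP1, and 31.7, 45.3 and 42.6 CPM in MX, with no overlap between the 3 groups. It rose by 2.02 (SE 0.16, edgeR adjusted p = 2.87e-08) in YAP1-S127A versus MX, by 0.83 (SE 0.15, adjusted p = 0.00178) in YAP1 versus MX and by 1.19 (SE 0.15, adjusted p = 0.000297) in YAP1-S127A versus YAP1, and each call was kept without each library in turn. HSPH1, a cytosolic nucleotide exchange factor of HSP70, rose by 0.50 (adjusted p = 0.0477) in YAP1-S127A versus MX, a call lost without any 1 library except MX replicate 3 and YAP1-S127A replicate 1 (adjusted p = 0.0529 to 0.235) and with the replicate number as a block (0.126). Scaled to total counts HSPH1 had 0.23 (adjusted p = 0.377).

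Targets of p53, which also drives SESN2, gave 0 edgeR calls among 14 tested in each comparison. This stands beside 18.4% of all tested genes in YAP1-S127A versus MX, 6.81% in YAP1 versus MX and 1.97% in YAP1-S127A versus YAP1. At an unadjusted edgeR p under 0.05 there were 5, 1 and 1 of the 14 in these comparisons. Among all 15492 tested genes a p of 0.0493, 0.0515 and 0.0529 ranked 4828, 3103 and 1968 there. DESeq2 called 1, 0 and 0 of the 14 and limma-voom 0, 0 and 0. The list median was 0.17 in YAP1-S127A versus MX, 0.06 in YAP1 versus MX and 0.10 in YAP1-S127A versus YAP1, against all-gene medians of -0.0045, -0.0036 and 0.0056.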
